A study of Mus musculus with 8 samples.

Results

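The core circadian clock genes *Arntl*, *Clock*, *Npas2*, *Per1*, *Per2*, *Per3*, *Cry1*, *Cry2*, *Nr1d1* and *Nr1d2* were read on 8 one-color mouse arrays, 4 of Co mice and 4 of Pg mice. Members were all probes that the array design lists under 1 of these 10 gene names, which gave 24 of 56605 probes. Co mice received saline, and Pg mice received sonicated *Porphyromonas gingivalis*, a bacterium of periodontal disease, in 100 μL of saline, both by intravenous injection. All were male C57BL/6J mice, 12 weeks old, with no genetic change named, and the tissue was taken 18 h after the injection and labelled brown adipose tissue (BAT). The mice lived under a light and dark cycle, and the clock time of injection and collection is not given in the sources used here. With 1 time point, a shift in the phase of a rhythm and a change in its level cannot be told apart, and in a bulk tissue neither can fewer cells of a type and less RNA per cell.

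The circadian clock is a feedback loop of transcription found in nearly every cell. ARNTL (also called BMAL1) pairs with CLOCK, or with its relative NPAS2, and activates genes through E-box elements, among them the *Per*, *Cry* and *Nr1d* genes. PER and CRY proteins then bind back and inhibit the activators, while the nuclear receptors NR1D1 and NR1D2 (REV-ERBα and β) repress *Arntl* and compete with the ROR activators at the same elements. In fat the clock is known to time lipid use and heat production, and NR1D1 is known to act on thermogenic genes in BAT.

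The Co arrays had 34760 to 35831 probes well above background and the Pg arrays 31132 to 34063, without overlap (two-sided exact permutation p = 0.0286, which is the lowest possible with 4 arrays in each group). Co and Pg arrays occupied separate rows of 1 slide, so position and group cannot be told apart. Arrays with the same replicate number shared a column of the slide. Of 10 brown adipocyte markers, 6 were well above background on all 8 arrays, but *Ucp1* (the uncoupling protein of heat production) and *Elovl3* were on 0 of 8. All 10 skeletal muscle markers were well above background on all 8 arrays, with a summed log2 signal of 21.08 to 21.19 in Co mice and 21.05 to 21.18 in Pg mice, and *Atp2a1* was the only marker called (log2 fold change −0.44, adjusted p = 0.0411 from limma). The summed log2 signal of the brown adipocyte markers was 18.15 to 18.34 in Co mice and 18.23 to 18.35 in Pg mice. Signals were summed before the log was taken, so each sum mostly reads its brightest markers. Here that was *Cox8b*, with a mean log2 signal of 17.94 in Co mice and 18.05 in Pg mice. The next was *Cpt1b*, at 15.24 and 15.13, and the sum says little on the dimmer markers. For 5 macrophage markers the summed log2 signal was 12.86 to 13.66 in Co mice and 12.88 to 14.62 in Pg mice. For 5 neutrophil markers it was 10.30 to 10.37 and 10.05 to 11.66. Among these, *S100a8* and *S100a9* differed by 2.16 and 2.04 on the log2 scale (q = 0.132 and 0.195 from limma). The other neutrophil markers differed by 0.22 for *Mpo*, 0.09 for *Ly6g* and −0.03 for *Elane* (q = 0.493, 0.731 and 0.954 from limma). For 3 red blood cell markers the summed log2 signal was 17.66 to 18.37 in Co mice and 16.62 to 18.41 in Pg mice. For 6 general adipocyte markers it was 16.28 to 16.49 in Co mice and 16.28 to 16.64 in Pg mice, and for 5 B and T cell markers 10.62 to 10.82 and 10.61 to 10.78. The part of these markers in the clock results was not tested.

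Most members were read by several probes, numbered here from the brightest to the dimmest of each gene. The probes of *Clock* and *Arntl* gave unequal readings, so the first 30 of the 60 bases of each are shown, as the scanner output lists them.
Clock probe 1: gcctgtactggttcacatttattgctgaca
Clock probe 2: ttcccatttgagttgctcttgtaatatttt
Clock probe 3: tggtggacccttactagaaagaatcacaga
Clock probe 4: acagactttacaaagtacatcaactcagca
Arntl probe 1: aacccccacataggcatcgatatgatagat
Arntl probe 2: tctgtagaatgaagtgcaacaggccttcag
Arntl probe 3: ctctttgtctccgagtctgtcttcaagatc
By the array design, on mouse build mm9, *Clock* probes 1, 2 and 3 lie at chr5:76639992-76640051, chr5:76641377-76641436 and chr5:76664578-76664637, and *Clock* is read on the minus strand. *Arntl* probe 1 lies at chr7:120456978-120457037 and probe 2 at chr7:120439030-120439089, on the plus strand. Probe 3 of *Clock* is listed under the cDNA AK030352, and probes 1, 2 and 4 under the RefSeq transcript NM_007715. No annotation of mm9 was used, so whether a probe lies in an exon or an untranslated region is not stated.

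Of the 24 probes, 22 (9 genes) were well above background on all 8 arrays and were tested. Of these 22 probes, 1 changed between the groups at an FDR q (the p-value adjusted over all probes tested) under 0.1 in limma, *Clock* probe 3, which was lower in Pg mice. That is 4.55% of the clock probes, against 7.82% of all 33819 probes tested with an FDR q under 0.1 and 6.00% that passed and were lower. *Clock* probe 3 was also the only DEG (q under 0.1 and a fold change above 1.5), a class that held 1.61% of all probes tested. Before adjustment, 7 of the 22 had a p under 0.05 in limma (2 higher and 5 lower, 31.8%), against 22.8% of all probes tested. The values of Co and Pg mice did not overlap for *Clock* probe 3 and *Arntl* probe 2, which is 9.09% of the clock probes against 15.8% of all probes tested. Each of these shares lay within a few probes of the share over all probes, and the direction was mixed. There were 8 probes with a higher and 14 with a lower mean in Pg mice. The median of their log2 fold changes was −0.105, compared with −0.04 over all probes tested (14303 higher and 19516 lower).

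**Figure D1:**
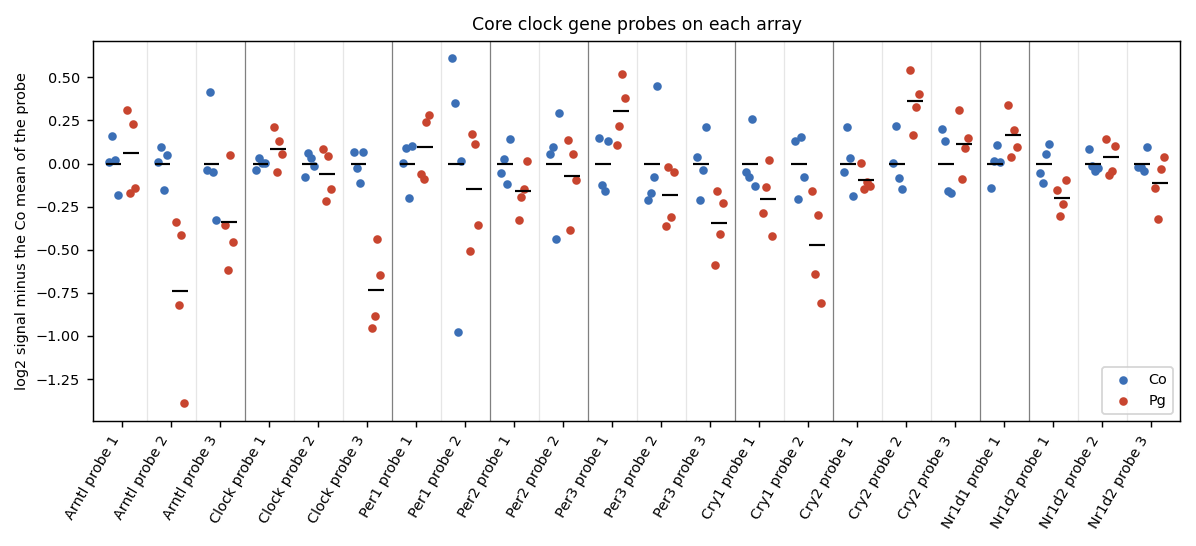
Log2 signal of each of the 22 tested clock probes on each array, minus the mean of the 4 Co arrays of that probe (y axis), with the probes along the x axis. Blue points are Co mice, red points Pg mice and black bars the group means, and only *Arntl* probe 2 and *Clock* probe 3 show groups that do not overlap.

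The precision allowed a bound on the size of many differences. For the brightest probe of each gene, 0 of 9 passed an FDR q under 0.1 in limma (2 had an unadjusted p under 0.05), where 7.82% and 22.8% of all probes tested did. Of the 9, 5 had a higher and 4 a lower mean in Pg mice, and the log2 fold changes ran from −0.21 for *Cry1* to 0.30 for *Per3*. All 9 of these 95% intervals lay inside a 1.5-fold change in either direction, from 0.714-fold at the lowest bound to 1.485-fold at the highest, as did 15 of the 22 intervals over all tested clock probes. The intervals that left this range belonged to dimmer probes of *Arntl*, *Clock*, *Per1*, *Per3*, *Cry1* and *Cry2*. For these genes the bound therefore holds for the brightest probe and not for every probe.

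**Figure D2:**
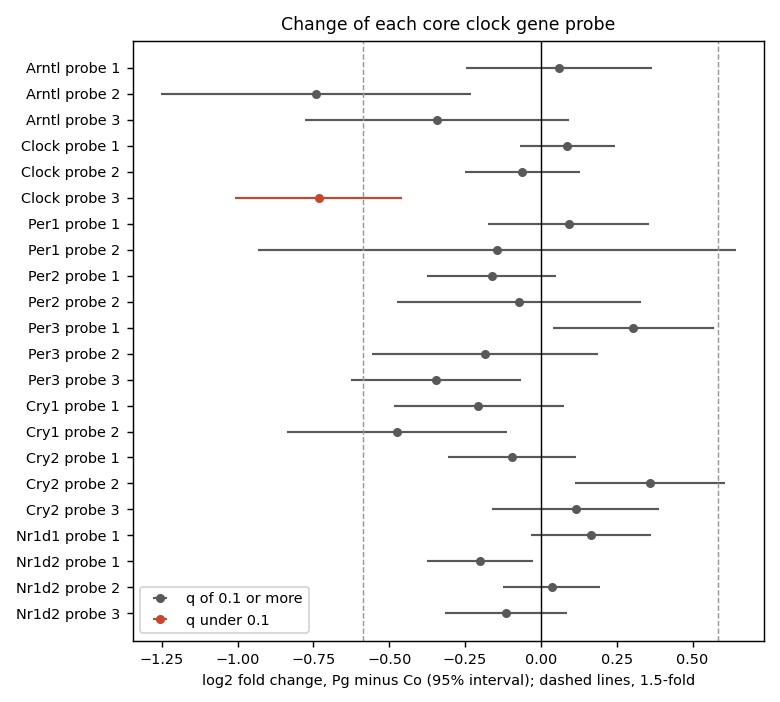
Log2 fold change of each tested clock probe (Pg minus Co, x axis) with its 95% interval from limma, 4 arrays per group. The dashed lines mark a 1.5-fold change, and *Clock* probe 3, in red, is the only probe with an FDR q under 0.1.

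Among the activators, *Clock* was read unequally by its probes. Probe 3 had log2 signals of 7.34, 7.25, 7.16 and 7.34 in Co mice and of 6.32, 6.39, 6.84 and 6.63 in Pg mice. Every Pg value lay below every Co value. The mean went from 7.28 ± 0.09 (SD, n = 4) to 6.54 ± 0.24 (SD, n = 4) so that it fell by 0.73 on the log2 scale (SE 0.12, 95% interval −1.01 to −0.46, adjusted p = 0.0439 from limma), to 0.602 times the Co level (95% interval 0.498 to 0.729). The scanner's own error estimate for this spot was 10.2% to 12.4% of its signal, and the 4155 tested probes within 0.5 of its brightness on the log2 scale had a median log2 fold change of −0.08. Among the scalings and the arrays left out, the call was lost without normalization (−0.60, q = 0.138 from limma), without Co replicate 2 (−0.74, q = 0.109) and without Co replicate 3 (−0.77, q = 0.108). The call was also lost with the replicate number as a block in the fit (−0.73, q = 0.122 from limma), where 0 of all probes passed. With normexp on the mean signal (−0.49) and with the raw median signal (−0.51) q was under 0.1 but the fold change was below 1.5, so that the probe was no DEG.

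The brighter probes of *Clock* did not pass the test. Probe 1 had log2 signals of 9.89, 9.96, 9.93 and 9.93 in Co mice and of 10.14, 9.88, 10.06 and 9.98 in Pg mice, a difference of 0.09 (95% interval −0.07 to 0.24, q = 0.478 from limma) that turned to −0.01 in the authors' normalized values. Probe 2 had 9.15, 9.29, 9.26 and 9.21 in Co mice and 9.31, 9.01, 9.27 and 9.08 in Pg mice, a difference of −0.06 (95% interval −0.25 to 0.13, q = 0.691). On both probes the groups overlapped, and both intervals exclude a fall of the size seen on probe 3. Probe 4, which spans 661 bases of the genome, was well above background on 0 of 8 arrays, with log2 signals of 2.60 to 3.82 in Co mice and 1.92 to 3.02 in Pg mice.

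*Arntl*, the partner of *Clock*, had its brightest probe at 9.0, 9.15, 9.01 and 8.81 in Co mice and 9.30, 8.82, 9.22 and 8.85 in Pg mice. These groups overlapped, with a log2 difference of 0.06 (standard error 0.13, 95% interval −0.25 to 0.36, q = 0.818 from limma) whose sign turned with 2 of the other processing choices and without Co replicate 4 or Pg replicate 1. Probe 2 had 6.67, 6.76, 6.51 and 6.71 in Co mice and 6.32, 5.84, 6.25 and 5.27 in Pg mice. All Pg values were lower than all Co values, with Pg replicate 4 the lowest, and the log2 difference was −0.74 (standard error 0.22, 0.598-fold, q = 0.111 from limma), just outside the threshold. It was −0.43 with normexp and −0.42 with the raw median signal. Probe 3 ranged from 5.98 to 6.72 in Co mice and from 5.69 to 6.36 in Pg mice, a difference of −0.34 (q = 0.32) that was −0.17 without normalization between arrays. *Npas2*, which can stand in for *Clock*, had a single probe that was well above background on 0 of 8 arrays, with log2 signals of 2.53 to 3.49 in Co mice and 2.21 to 3.86 in Pg mice.

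The *Per* genes code for the repressors whose daily rise and fall closes the loop. *Per1* probe 1, among the brightest clock probes, had log2 signals of 13.59, 13.68, 13.39 and 13.69 in Co mice and 13.53, 13.50, 13.83 and 13.87 in Pg mice, a difference of 0.09 (95% interval −0.17 to 0.36, q = 0.667 from limma). *Per2* probe 1 had 10.29, 10.37, 10.23 and 10.49 in Co mice and 10.02, 10.15, 10.20 and 10.36 in Pg mice, a difference of −0.16 (95% interval −0.37 to 0.05, q = 0.332). Both overlapped between the groups. *Per3* probe 1 had 9.59, 9.32, 9.28 and 9.57 in Co mice and 9.55, 9.66, 9.96 and 9.82 in Pg mice, a difference of 0.30 (95% interval 0.04 to 0.57, q = 0.171). Here 3 of the 4 Pg values lay above all Co values, without a call. *Per3* probe 2 ranged from 8.79 to 9.45 in Co mice and from 8.64 to 8.98 in Pg mice, a difference of −0.18 (q = 0.531) that was −0.03 without Co replicate 4. Its probe 3 ranged from 5.83 to 6.25 in Co mice and from 5.45 to 5.88 in Pg mice, a difference of −0.35 (q = 0.15) that was −0.16 with normexp. The dim second probe of *Per1* had the widest spread among the tested clock probes in Co mice, from 4.52 to 6.11 in Co mice and from 4.99 to 5.67 in Pg mice (−0.15, 95% interval −0.93 to 0.64). That of *Per2* ranged from 5.45 to 6.18 in Co mice and from 5.50 to 6.02 in Pg mice (−0.07, 95% interval −0.48 to 0.33), and both changed sign with scaling to the 75th percentile or without normalization between arrays.

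The *Cry* genes code for cryptochromes, the PER partners that block the activators. *Cry2* probe 1 had log2 signals of 13.10, 13.36, 13.18 and 12.96 in Co mice and 13.15, 13.00, 13.04 and 13.02 in Pg mice, a difference of −0.10 (95% interval −0.31 to 0.11, q = 0.568 from limma). *Cry2* probe 2 had 8.90, 9.11, 8.81 and 8.75 in Co mice and 9.44, 9.06, 9.22 and 9.30 in Pg mice, a difference of 0.36 (standard error 0.11, 1.283-fold, q = 0.11), the highest among the clock probes. Only the Pg replicate 2 value of probe 2 lay within the Co range. Probe 3 of *Cry2* ranged from 8.66 to 9.03 in Co mice and from 8.74 to 9.14 in Pg mice, a difference of 0.11 (q = 0.605). *Cry1* was dim, with probe 1 at 5.43 to 5.82 in Co mice and 5.14 to 5.58 in Pg mice (−0.21, q = 0.351) and probe 2 at 5.14 to 5.50 in Co mice and 4.54 to 5.19 in Pg mice (−0.47, q = 0.135). The size of these differences was smaller with normexp on the mean signal, at −0.07 for probe 1 and −0.16 for probe 2, and without normalization between arrays, at −0.02 and −0.28.

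The REV-ERB receptors form the second loop. *Nr1d1* (REV-ERBα) had 1 probe, at 10.49, 10.65, 10.74 and 10.64 in Co mice and 10.97, 10.67, 10.83 and 10.73 in Pg mice, a log2 difference of 0.17 (95% interval −0.03 to 0.36, q = 0.291 from limma). *Nr1d2* (REV-ERBβ) probe 1 had 12.19, 12.13, 12.30 and 12.36 in Co mice and 12.09, 11.94, 12.01 and 12.15 in Pg mice, a difference of −0.20 (95% interval −0.37 to −0.03, q = 0.172). The groups overlapped on both receptors. *Nr1d2* probe 2, as bright as probe 1, had 12.07 to 12.20 in Co mice and 12.05 to 12.26 in Pg mice, a difference of 0.03 (q = 0.797) whose sign turned with 3 of the other processing choices. Probe 3 had 11.05 to 11.19 in Co mice and 10.77 to 11.13 in Pg mice, a difference of −0.12 (q = 0.468).

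Because probes of the same gene are read on the same array, their difference does not depend on the scaling of single arrays by a common factor. This comparison was chosen after seeing the data. The 8 genes with several tested probes gave 18 probe pairs within a gene. For 9 of them, in *Arntl*, *Clock*, *Per3*, *Cry2* and *Nr1d2*, the difference between the probes did not overlap between Co and Pg mice, which is 50% of the pairs, against 19.0% of the probe pairs within genes that have 2 to 10 tested probes over the whole array. Each of these 9 pairs had an unadjusted exact permutation p of 0.0286, two-sided, the smallest that 70 splits allow. *Clock* probe 1 exceeded probe 3 by 0.82 more on the log2 scale in Pg than in Co mice, and probe 2 exceeded probe 3 by 0.67 more. *Arntl* probe 1 exceeded probe 2 by 0.80 more and probe 3 by 0.40 more in Pg mice, though the latter had an exact permutation p above 0.05 in 2 of 3 other settings (normexp, the raw median signal and no normalization between arrays). In these 3 settings the differences were 0.42 to 0.68 for *Arntl* probes 1 and 2, 0.19 to 0.27 for *Arntl* probes 1 and 3, and 0.41 to 0.58 for *Clock* probes 2 and 3. *Per3* probe 1 exceeded probe 3 by 0.65 more in Pg mice. *Cry2* probe 2 gained 0.46 on probe 1 and 0.25 on probe 3. The smallest such differences were 0.15 between *Clock* probes 1 and 2 and 0.23 between *Nr1d2* probes 1 and 2. The pairs of a gene share probes and are not independent of each other. The share over the whole array was not matched for brightness, and a shift that depends on brightness remains in these differences. Tested probes within 0.5 of the brightness of *Clock* probes 1 and 3 had median log2 fold changes of −0.014 and −0.081. For *Arntl* probes 1 and 2 these medians were −0.025 and −0.099. The part of brightness was not tested.

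Where the probes of a gene differed, the order of their positions was not the same from gene to gene. On mm9, *Clock* probe 3 lies 24586 bases and probe 2 lies 1385 bases upstream of probe 1, which is nearest to the 3′ end of the gene. *Arntl* probes 2 and 3 lie 17948 and 20331 bases upstream of probe 1. In both genes the probe nearest to the 3′ end had the highest log2 fold change. So it did in *Nr1d2*, where probe 2, nearest to the 3′ end, stood at 0.03, against −0.20 for probe 1 at 291 bases and −0.12 for probe 3 at 685 bases upstream. In *Cry2* probe 1, nearest to the 3′ end, stood at −0.10, against 0.36 for probe 2 at 7610 bases and 0.11 for probe 3 at 21665 bases upstream. In *Per3* the middle probe was the highest. The probe pairs of *Per1*, *Per2* and *Cry1* overlapped between the groups (exact permutation p of 0.514, 0.629 and 0.143). In these genes the most 3′ probe was the higher in *Per1* (0.09 against −0.15). It was the lower in *Per2* (−0.16 against −0.07) and *Cry1* (−0.47 against −0.21). The pairs of *Nr1d2* probes 2 and 3 and of *Cry2* probes 1 and 3 also overlapped (exact permutation p of 0.2 and 0.114). Brightness moves together with position in *Clock*, *Arntl*, *Cry2*, *Per1* and *Per2*, since the far probes are also the dim ones. In *Cry2* these dim, far probes had the higher log2 fold changes. Which transcripts each probe reads was not tested.

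**Figure D3:**
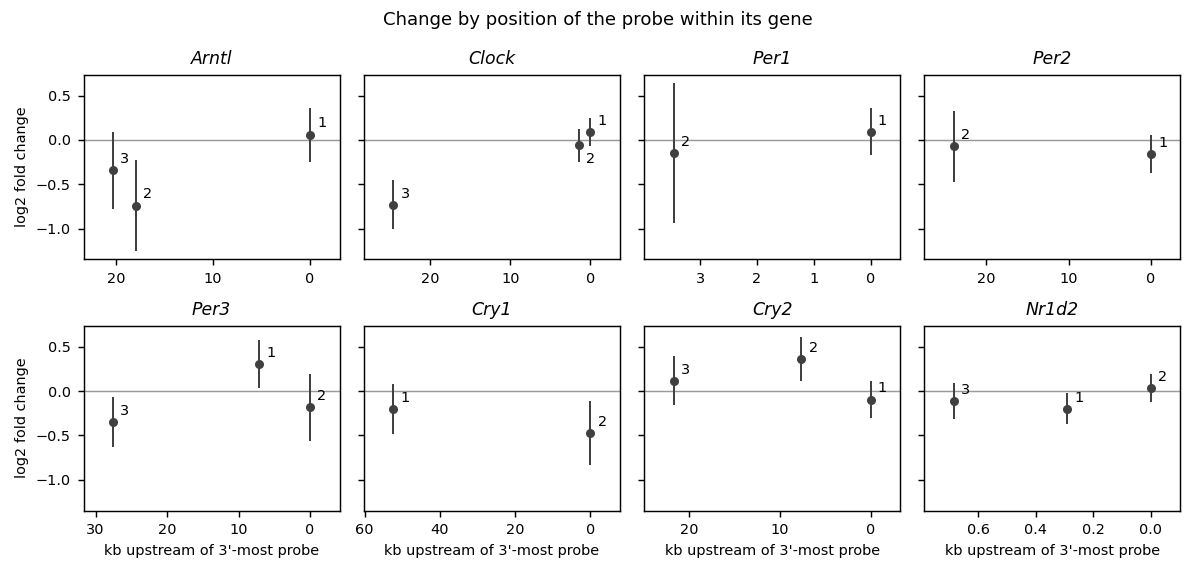
Log2 fold change with its 95% interval (Pg minus Co, y axis) against the distance in kb upstream of the most 3′ probe of the same gene on mm9 (x axis, its own scale for each gene), for the 8 clock genes with several tested probes. Numbers are probe numbers. The most 3′ probe is the highest in *Clock*, *Arntl*, *Nr1d2* and *Per1* and the lowest in *Cry2*, *Cry1* and *Per2*. In *Per3* the middle probe is the highest.

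A list of 22 other genes of the clock and its output was read with 1 probe each, the brightest, and 21 were tested (*Rorb* was not). Of these, 2 passed an FDR q under 0.1 in limma, both lower in Pg mice, where 6.00% of all probes tested passed and were lower. Before adjustment 6 had a p under 0.05 in limma, and 3 did not overlap between groups, where 22.8% and 15.8% of all probes tested did so. Means were higher for 12 and lower for 9, and the median was 0.065 on the log2 scale. The called genes lay in 2 of the 4 groups of the list.

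The secondary loop regulators numbered 7, of which 6 were tested and 0 passed in limma (2 had an unadjusted p under 0.05). Their means were higher for 5 and lower for 1 (median log2 fold change 0.165). *Timeless*, a replication fork protein named for a fly clock gene, had the largest difference of this group, 0.46, and did not overlap between groups (q = 0.128). With normexp it passed (log2 fold change 0.43, q = 0.0805 from limma). All 9 enzymes that set the period or stability of PER and CRY were tested, and 5 means were higher and 4 lower (median 0.07). Of these, 0 passed in limma (1 had an unadjusted p under 0.05). The largest difference among them was −0.32 for *Fbxl21*, a ubiquitin ligase subunit for CRY (q = 0.348).

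The 4 output factors, of the PAR bZIP family and their rival NFIL3, had 2 higher and 2 lower means (median log2 fold change −0.02). *Nfil3*, the repressor at D-box elements, had log2 signals of 12.80, 12.94, 12.72 and 12.36 in Co mice and 11.70, 11.81, 12.32 and 11.73 in Pg mice. It fell by 0.82 without overlap between groups (SE 0.17, q = 0.0616 from limma). The activators at the same elements had small differences without a call, 0.05 for *Dbp* (q = 0.876), 0.08 for *Tef* (q = 0.621) and −0.08 for *Hlf* (q = 0.759). Both clock-controlled genes had lower means. *Wee1*, a mitotic kinase whose gene is a target of CLOCK and ARNTL, had 8.28, 8.20, 8.11 and 8.18 in Co mice and 7.16, 7.47, 7.72 and 7.74 in Pg mice. It fell by 0.67, again without overlap (SE 0.13, q = 0.0568 from limma). *Nampt*, the enzyme of NAD salvage, differed by −0.18 (q = 0.203).

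Leaving out single arrays removed both calls in part of the fits, while the share of all probes that passed also fell, from 7.82% to between 0.00887% and 7.03%. *Nfil3* lost its call in 6 of 8 fits with an array left out (q of 0.114 to 0.137), keeping it without Co replicate 4 (q = 0.0872) and without Pg replicate 3 (q = 0.0502), and *Wee1* lost its call without any 1 of the Co replicates or without Pg replicate 2 (q of 0.103 to 0.128). The log2 fold changes were −0.96 to −0.74 for *Nfil3* and −0.75 to −0.55 for *Wee1* in these fits.

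**Figure D4:**
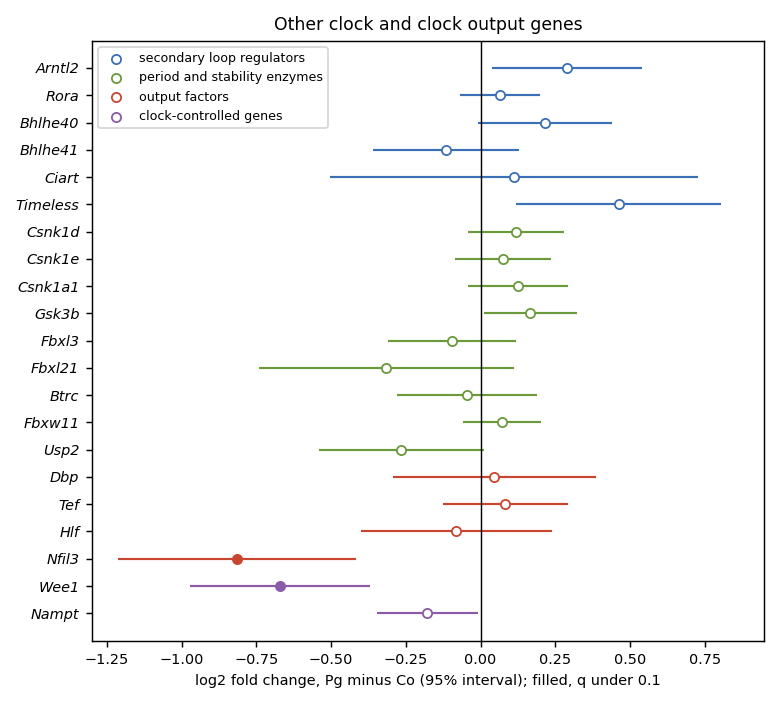
Log2 fold change (Pg minus Co, x axis) with its 95% interval from limma for the brightest probe of 21 other clock and clock output genes, colored by group of the list. Filled points have an FDR q under 0.1, and these are *Nfil3* and *Wee1*, both lower in Pg mice.

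The promoters of the members, from 250 bases before to 50 bases after each transcript start, came from RefSeq (GRCm38.p6), with 13 promoters for 9 genes and none for *Per2*. They were searched on both strands for the letters that clock factors are known to bind, and no 2 matches of different motifs overlapped. The E-box CACGTG was in 2 of 13 promoters (7.15% of 32851 promoters of all genes), the E-prime box CACGTT in 3 (4.68%), the ROR and REV-ERB core AGGTCA in 4 (16.3%), the D-box TTATGNAA in 2 (3.38%) and the cAMP response element TGACGTCA in 0 (1.79%). The windows below show matches in 5 of the members, with the motif in capitals and 10 bases on each side, read 5′ to 3′ along the strand of the gene.
Clock ROR and REV-ERB core: ctttggcctcTGACCTgacagatgac
Arntl ROR and REV-ERB core: ggcagaaagtAGGTCAgggacggagg
Per1 E-box: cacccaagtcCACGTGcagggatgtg
Cry1 E-box: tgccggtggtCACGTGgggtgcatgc
Nr1d1 E-prime box: cacagatctcAACGTGccggctgctg
The *Clock* window is in the promoter chr5:76303453-76303752 (minus strand), and the *Arntl* window in chr7:113207261-113207560 (plus strand). Those of *Per1*, *Cry1* and *Nr1d1* are in chr11:69098699-69098998 (plus), chr10:85185005-85185304 (minus) and chr11:98775328-98775627 (minus). The motif starts 119 bases before the transcript start in *Clock*, 166 in *Per1*, 60 in *Cry1* and 28 in *Nr1d1*. *Per1* and *Cry1*, the members with an E-box in the windows searched, had no probe with an FDR q under 0.1 in limma. That was so for all but 1 of the 22 tested clock probes, and 7.82% of all probes tested passed. The probes of these genes are too few to read this as a result about the E-box.

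The genes whose brightest probe was most like that of *Arntl* over the 8 arrays, among 19635 genes, were *Ewsr1* (Pearson's r = 0.964), *LOC101056056* (r = 0.949) and *BC030479* (r = 0.948). Those most like *Nr1d1* were *Gm15545* (r = 0.969), *Etv6* (r = 0.963) and a non-coding probe that the array names by its position on chromosome 6 (r = 0.962). These are descriptions over 8 arrays that share a slide and a scaling.

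Other processing choices moved single clock probes across the threshold. *Cry2* probe 2 passed in 4 of 16 other settings (log2 fold change 0.34 to 0.37, q of 0.0568 to 0.0904 from limma), *Arntl* probe 2 in 3 of 15 (−0.74 to −0.42, q of 0.048 to 0.0902) and *Nr1d2* probe 1 in 1 of 15 (−0.23, q = 0.0798), while *Clock* probe 3 passed in 12 of 16. Each of these probes kept its direction in every setting it was measured in.

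**Figure D5:**
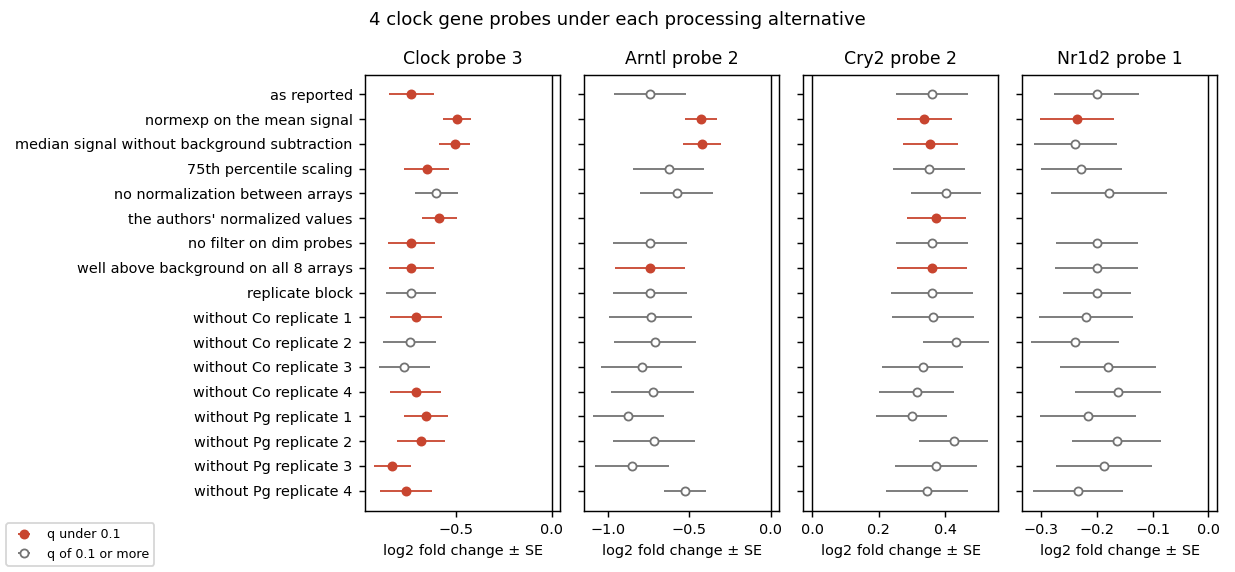
Log2 fold change ± standard error (x axis, its own scale for each probe) of the 4 clock probes that passed an FDR q under 0.1 in at least 1 setting, for each processing choice and each array left out. Red filled points passed and open points did not, a missing point was not measured in that setting, and no point crosses 0.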

How the data were processed

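The authors deposited, for each of the 8 arrays, the output of Agilent Feature Extraction 11.0.1.1, in which each spot has a Cy3 intensity that has not been normalized between arrays. The processed intensity used here had been background-subtracted and detrended. The authors also deposited a table of log2 values after quantile normalization, which served as an alternative (16 clock probes), and its columns of fold changes, p-values and scores were not used. Values were processed in R 4.3.3. Spots marked as population outliers (90 to 150 of 59305 per array) were left out, intensities were averaged per probe, quantile-normalized, raised to at least 1 and log2-transformed. Probes well above background on at least 4 of 8 arrays (33819 of 56605) were fitted in limma 3.58.1 (lmFit, eBayes). Its two-sided p-values were adjusted over all of these probes by the Benjamini-Hochberg method to give the FDR q. Called means q under 0.1, and a DEG also has a fold change above 1.5, as in the study's methods. The fit was tested on simulated data. The number of arrays limits the precision. Groups came from the sample labels, with 1 array per mouse. All 10 members with every probe were named, with the called genes and the largest change of each group of the other clock genes, and 3 genes most like *Arntl* and *Nr1d1*. *Dbp*, *Tef*, *Hlf* and *Nampt* were named after their values were seen, to complete their groups. One gene of the list of other clock genes is not reported here. Members and lists were chosen with earlier results of these data known. Probe sequences and mm9 positions are those of the scanner output. Alternatives were normexp on the mean signal (offset 50), the raw median signal, 75th percentile scaling, arrays left without normalization, the authors' values, other filters on dim probes, a replicate block and each array left out.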

Additional observations from a re-analysis of the deposited data

How the results depend on the processing

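Against 1 clock probe with an FDR q under 0.1 in limma, there were 4 with normexp on the mean signal, 3 with the raw median signal, 3 with the filter on all 8 arrays, 2 with the authors' normalized values and 0 without normalization between arrays. The shares of all probes that passed in these settings were 10.2%, 9.06%, 10.3%, 6.11% and 0.0858%, against 7.82% as reported. With each array left out the count was 0 to 1, with 0 without Co replicate 2 or 3, where 0.686% and 0.00887% of all probes passed (1.66% to 7.03% without another array). Against 1 DEG, there were 0 with normexp, the median signal and no normalization, 2 with the filter on all 8 arrays and 0 to 1 with an array left out. Of the other clock genes, 2 passed, both lower, against 3 with normexp (*Timeless* was the third, and higher), 0 without normalization, 1 without a filter on dim probes and 0 to 2 with an array left out (0 without Co replicate 1, 2 or 3 or Pg replicate 2). The labels do not say that equal replicate numbers pair mice, but arrays of equal number shared a slide column. Correlations of same-numbered deviations ran from −0.068 to 0.178, and 2 of 4 were highest with their own number. These values do not settle whether a pairing exists. With the replicate block, 0 clock probes, 0 clock DEGs, 0 other clock genes and 0 of all probes passed in limma. The cause was not tested in any of these cases.

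Some differences near 0 changed sign. *Arntl* probe 1 (0.06) gave −1e-04 with normexp, −0.0059 with the median signal and −0.0243 (without Pg replicate 1) to 0.136 with an array left out. *Clock* probe 1 gave −0.01 in the authors' values. *Per1* probe 2 gave 0.0028 with the 75th percentile, 0.0529 without normalization and −0.4706 to 0.0593 (without Co replicate 1) with an array left out. *Per2* probe 2 gave 0.0531, 0.1032 and, with an array left out, −0.2178 to 0.0331 (without Pg replicate 2). *Nr1d2* probe 2 gave −0.0011 with normexp, −0.0012 with the median signal, −0.0028 in the authors' values and −0.0018 (without Pg replicate 1) to 0.0674 with an array left out. Of the 9 within-gene probe differences, 8, 9 and 8 kept an exact permutation p under 0.05 with normexp, the median signal and no normalization (percentile scaling gives the same differences as no normalization), and *Arntl* probe 1 minus probe 3 was the pair that lost it.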
